A study of Homo sapiens with 48 samples.

Results

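The SNHG genes are non-coding genes whose introns carry small nucleolar RNAs (snoRNAs). The 10 described here, SNHG1, SNHG3, SNHG5, SNHG6, SNHG7, SNHG8, SNHG11, SNHG12, SNHG15 and SNHG16, were taken by gene name from the 57820 genes of the deposited expected-count table. Each had 1 row there, and all 10 passed the filter on low counts that left 19129 genes. The names were chosen without a threshold on any measured value.

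RNA came from Flp-In 293 T-REx cells, a derivative of the human embryonic kidney line HEK293 with a single site for inserting a transgene. There were 8 stable lines. The line CLIP carried the CLIP protein tag alone, WT carried CLIP-tagged wild-type UPF1, and the other lines carried CLIP-UPF1 with the change K498A, DE636AA, R843C, A546H, GA-KH or E797R. Every one was transfected for 72 h with 40 nM of a non-targeting siRNA (siNT) or of an siRNA against endogenous UPF1 (siUPF1), with 3 libraries in each of the 16 groups. All lines kept their own UPF1 gene, so siNT cells of a mutant line held endogenous and CLIP-tagged protein together. The series is concerned with how switching the ATPase of UPF1 on and off affects nonsense-mediated mRNA decay (NMD).

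NMD removes RNAs on which a ribosome stops well upstream of the last exon junction, and UPF1 is its central ATP-driven helicase. Most SNHG genes are transcribed by RNA polymerase II from promoters of the kind found at ribosomal protein genes, where transcripts begin with a run of pyrimidines. The introns give rise to snoRNAs that guide 2′-O-methylation (box C/D) or pseudouridylation (box H/ACA) of ribosomal RNA. The spliced exons reach the cytoplasm, carry only short reading frames, and are textbook substrates of NMD.

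The libraries held 21.3 to 47.1 M expected counts each, with a median of 32.3 M. Levels are given in CPM, counts scaled to the normalised library total, which does not correct for gene length, so levels are compared between libraries and not between genes. UPF1 itself fell from 105, 106 and 113 CPM with siNT to 18.2, 36.8 and 17.7 CPM with siUPF1 in CLIP (log2 fold change -2.17 ± 0.17 SE, edgeR adjusted p = 4.8e-13). Across the 7 CLIP-UPF1 lines UPF1 stood at 4027 to 6238 CPM with siNT and 3695 to 8235 CPM with siUPF1. Reads of the endogenous gene and of the transgene were counted under the same name, so depletion of the endogenous RNA can be checked in CLIP only. Of the HEK293 markers, VIM was at 430 to 807 CPM, NEFL at 169 to 493, PAX2 at 2.42 to 8.89 and NEFM at 0.842 to 2.76. Among markers of other cell types, PECAM1 was at 0 in every library, PTPRC and ALB did not exceed 0.182 CPM, COL1A1 reached 4.67, CD68 8.39 and EPCAM 64.9 to 100.2.

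The second siUPF1 library of CLIP stood apart from the other two. It kept 36.8 CPM of UPF1, and mitochondrial genes took 0.631% of its counts against 2.32% and 2.13% in its replicates and 1.53% to 2.47% in the siNT libraries of all lines. Calls of members that change when it is left out are therefore named. The shares of all genes, the other gene lists, the snoRNAs and the overlapping genes are given with it only. The same holds for some group levels and for the correlations over groups.

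RefSeq start sites of 8 members were found in the promoter table (GRCh38.p14). SNHG6 and SNHG15 had no entry. The 70 bases from 50 before to 20 after the start are shown for the 4 members that held both of 2 sequence features and for 2 that held neither, since hosts of this kind are known for their start sites. Capitals mark TATAA, searched on both strands from 50 to 10 bases before the start, and a run of at least 5 C or T read from its first C, searched on the transcribed strand and beginning within 10 bases of the start.
SNHG5 (chr6:85678714-85678783, minus strand): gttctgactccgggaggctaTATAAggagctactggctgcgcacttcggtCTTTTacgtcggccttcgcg
SNHG7 (chr9:136728165-136728234, minus strand): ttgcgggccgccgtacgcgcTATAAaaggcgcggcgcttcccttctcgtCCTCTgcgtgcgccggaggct
SNHG8 (chr4:118278712-118278781, plus strand): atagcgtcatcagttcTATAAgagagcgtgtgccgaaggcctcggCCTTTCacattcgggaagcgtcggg
SNHG12 (chr1:28581854-28581923, minus strand): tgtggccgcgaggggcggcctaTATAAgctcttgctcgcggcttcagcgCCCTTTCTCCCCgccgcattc
SNHG1 (chr11:62855866-62855935, minus strand): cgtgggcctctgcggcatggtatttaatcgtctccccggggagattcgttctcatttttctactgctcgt
SNHG3 (chr1:28505893-28505962, plus strand): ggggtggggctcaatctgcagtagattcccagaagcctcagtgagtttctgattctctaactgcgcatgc
SNHG5, SNHG7, SNHG8 and SNHG12 held both features, with the pyrimidine run beginning at the start itself for SNHG5, 1 base before it for SNHG7 and SNHG12 and 5 bases before it for SNHG8. The longest run, of 12 bases, was at SNHG12. Of all 35116 promoters in the table, 31.4% held the run, 4.46% held TATAA on the transcribed strand, 2.33% held it on the other strand and 1.38% held both features. SNHG11 and SNHG16 held the run alone, 9 and 5 bases after the start, and SNHG1 and SNHG3 held neither in this window. A match is a string of letters and not a measured start or a bound factor.

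The annotated spliced forms of type lincRNA, antisense or processed transcript were also read, from GENCODE release 29, whatever the type of their gene. In 68 of the 78 spliced non-coding transcripts of the members (87.2%), the reading frame from the first ATG ended 50 or more bases before the last exon junction. The share was 69.4% over all 51957 spliced non-coding transcripts read. It was 18 of 19 for SNHG5, 11 of 12 for SNHG1, and all forms of SNHG6, SNHG11 and SNHG12. For SNHG15 it was 8 of 10, for SNHG7 3 of 4, for SNHG16 5 of 7 and for SNHG8 3 of 5. SNHG3 had a single such form, of 3 exons, and its first frame did not end there (0 of 1).

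In CLIP, where no CLIP-UPF1 stands in for the depleted protein, 8 of the 10 members rose with siUPF1, 1 fell and 1 did not pass the test. Over all tested genes 25.1% were called higher and 22.3% lower in this line (edgeR quasi-likelihood test, adjusted p under 0.05). The members' median log2 fold change was 0.96 and that of all genes -0.01. SNHG7 changed most, by 3.17-fold, and SNHG12 least among those that rose, by 1.35-fold.

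**Figure D1:**
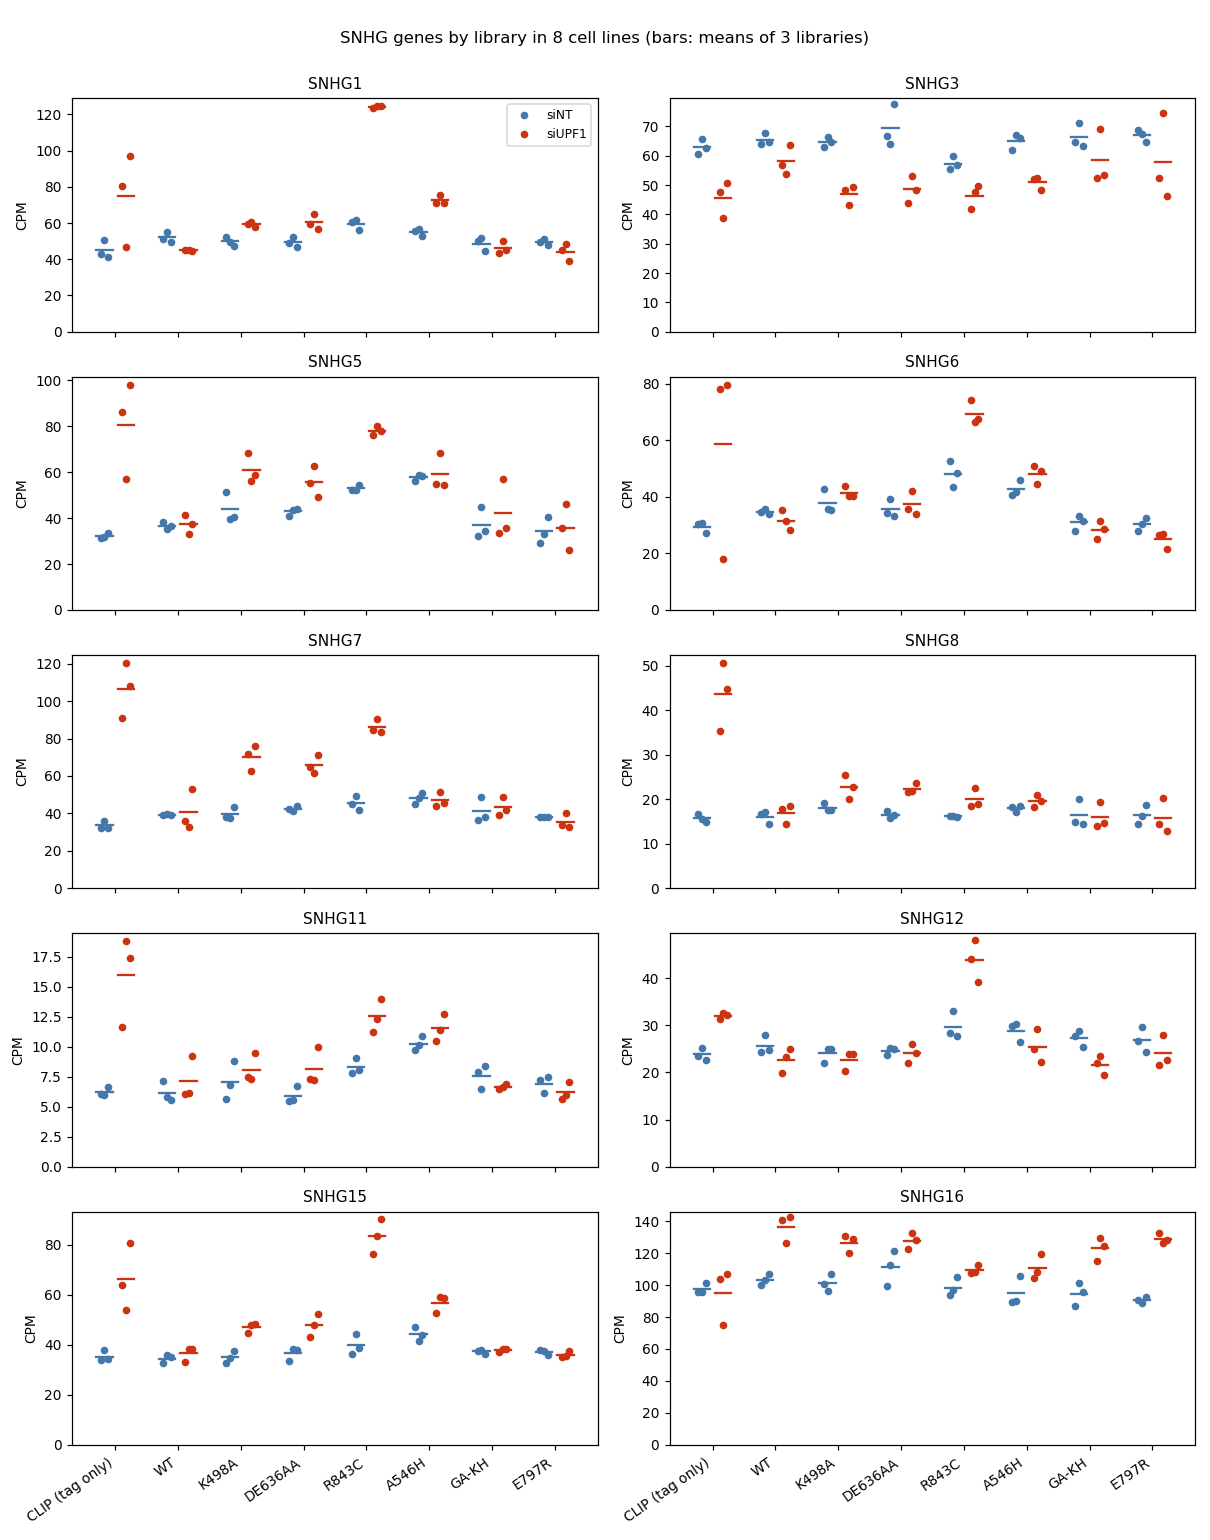
CPM (vertical axis, linear, from 0) of each SNHG gene in every library of the 8 lines, siNT in blue and siUPF1 in red, with a bar at the mean of 3 libraries. SNHG7 and SNHG8 are highest in CLIP siUPF1, SNHG1, SNHG12 and SNHG15 in R843C siUPF1, and SNHG3 is lower with siUPF1 in most lines.

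Among the hosts of box H/ACA snoRNAs, SNHG7, which carries SNORA17 and SNORA43, stood at 32.0, 36.2 and 32.5 CPM with siNT and 91.2, 120 and 108 CPM with siUPF1 in CLIP. No library of one group overlapped the other (log2 fold change 1.67 ± 0.12 SE, edgeR adjusted p = 6.5e-14). SNHG8, the host of SNORA24, went from 16.7, 15.6 and 14.98 CPM to 35.2, 50.5 and 44.8 CPM (1.46 ± 0.14, edgeR adjusted p = 5e-11). Those siUPF1 libraries of SNHG8 were above its siNT libraries of every line. SNHG11, the host of SNORA60, moved from 6.06, 5.97 and 6.59 CPM to 11.7, 18.8 and 17.3 CPM (1.36 ± 0.17, edgeR adjusted p = 1.2e-08). SNHG15, which carries SNORA9, rose from 33.9, 37.7 and 34.1 CPM to 64.0, 54.0 and 80.6 CPM (0.91 ± 0.10, edgeR adjusted p = 4.3e-10). For these 4 genes every siUPF1 library of CLIP was above every siNT library. That held for 6 of the 10 members in all, and for 23.2% of all genes. SNHG3, also a host of box H/ACA snoRNAs, fell and is described below.

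Of the hosts of box C/D snoRNAs, SNHG5, SNHG1 and SNHG6 rose in CLIP, and their siUPF1 libraries were spread widely. SNHG5, the host of SNORD50A and SNORD50B, stood at 31.3, 31.6 and 33.4 CPM with siNT and 86.2, 56.9 and 97.99 CPM with siUPF1 (1.33 ± 0.17, edgeR adjusted p = 5.4e-08). SNHG1, which carries 8 snoRNAs from SNORD22 to SNORD31, had 43.2, 50.5 and 41.1 CPM against 80.3, 46.7 and 97.0 CPM (0.73 ± 0.12, edgeR adjusted p = 6.3e-06). SNHG6, the host of SNORD87, had 30.3, 30.6 and 27.1 CPM against 78.0, 18.2 and 79.4 CPM (1.00 ± 0.23, edgeR adjusted p = 0.00039). In SNHG1 and SNHG6 the second siUPF1 library lay within or below the siNT libraries and the other two lay far above them. Without that library the log2 fold changes were 0.97 for SNHG1 (edgeR adjusted p = 3.9e-12), 1.42 for SNHG6 (1.1e-13) and 1.51 for SNHG5 (2.4e-09). Fitted on the CLIP libraries alone, with all of them kept, SNHG1 and SNHG6 did not pass (edgeR adjusted p = 0.076 and 0.17).

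SNHG12, which carries both kinds of snoRNA, rose from 23.6, 25.2 and 22.7 CPM to 31.4, 32.7 and 32.1 CPM in CLIP (0.43 ± 0.11, edgeR adjusted p = 0.001). Its 3 siUPF1 libraries lay close together, the second included. SNHG16, the host of SNORD1A to SNORD1C, was not called, with 95.6, 95.8 and 101 CPM against 104, 74.8 and 107 CPM (-0.03 ± 0.09, edgeR adjusted p = 0.78). SNHG3, the host of SNORA73A and SNORA73B, fell from 60.5, 65.7 and 62.6 CPM to 47.6, 38.7 and 50.7 CPM (-0.46 ± 0.12, edgeR adjusted p = 0.0011). All 3 siUPF1 libraries of SNHG3 lay below all siNT libraries. The same 9 members were called in CLIP without the second library, with log2 fold changes of -0.36 for SNHG3, 1.56 for SNHG7, 1.34 for SNHG8, 1.22 for SNHG11, 0.41 for SNHG12 and 1.03 for SNHG15.

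**Figure D2:**
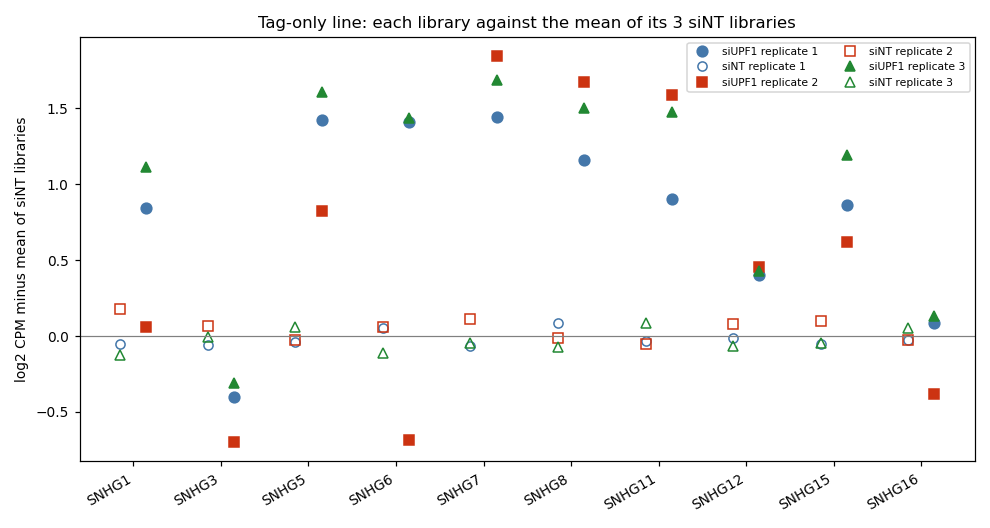
Log2 CPM of each CLIP library minus the mean of the 3 siNT libraries (vertical axis), open symbols siNT and filled symbols siUPF1, with the marker giving the replicate number. The second siUPF1 library (filled squares) lies below the other siUPF1 libraries for SNHG1, SNHG3, SNHG5, SNHG6, SNHG15 and SNHG16 and above them for SNHG7, SNHG8 and SNHG11.

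The snoRNAs themselves were hardly measured. Of 28 listed for the 10 hosts, 16 had a row in the table and 1, SNORA73B in SNHG3, passed the filter. None of the others exceeded 4 counts in any library. SNORA73B stood at 1.01 to 1.46 CPM with siNT and 1.63 to 2.19 CPM with siUPF1 in CLIP, and no response was called in any line (CLIP 0.63 ± 0.66, edgeR adjusted p = 0.46).

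With wild-type CLIP-UPF1 present, the members' log2 fold changes ran from -0.21 to 0.40. In WT 1 of 10 was called higher and none lower, where 14% of all tested genes were called higher and 13.3% lower, and the members' median log2 fold change was 0.03. SNHG7 had 38.9, 39.6 and 39.0 CPM with siNT and 35.9, 32.8 and 52.9 CPM with siUPF1 (0.04 ± 0.12), and the groups overlapped. SNHG16 was the gene called, from 99.7, 103 and 107 CPM to 140, 126 and 143 CPM (0.40 ± 0.09, edgeR adjusted p = 0.00058). With the replicate number as a block SNHG12 was called lower as well (-0.18, edgeR adjusted p = 0.045). The response differed from that of CLIP for 9 members, 8 of them lower and SNHG16 higher, against 11.9% of all genes in either direction. The differences ran from -1.62 ± 0.17 for SNHG7 (edgeR adjusted p = 7.6e-09) to 0.44 ± 0.13 for SNHG16 (0.016). SNHG16 no longer differed without the second siUPF1 library of CLIP (0.28, edgeR adjusted p = 0.091) or without the first of WT (0.41, 0.051), SNHG6 not without the third of CLIP (-0.86, 0.055).

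For GA-KH and E797R the counts of members called are given beside the shares of all genes and are not read as a result about the members. In GA-KH 1 member was called higher and 1 lower, where 14.5% and 13.8% of all genes were, and in E797R 1 was called higher and none lower, where 16% and 13.5% were. SNHG16 was the one higher in both, at 115, 130 and 125 CPM against 86.9, 101 and 95.5 CPM in GA-KH (0.38 ± 0.09, edgeR adjusted p = 0.0011) and at 133, 126 and 128 CPM against 90.8, 89.0 and 92.3 CPM in E797R (0.51 ± 0.09, 2.2e-05). SNHG16 libraries of the siRNAs did not overlap in either line. SNHG12 fell in GA-KH from 27.8, 28.8 and 25.4 CPM to 21.9, 23.5 and 19.5 CPM (-0.34 ± 0.11, edgeR adjusted p = 0.015). That call was lost without the second siNT library (edgeR adjusted p = 0.053) or the third siUPF1 library (0.070). SNHG3 was not called in these lines, where the second siUPF1 library was the highest of its group, at 69.1 CPM in GA-KH and 74.7 CPM in E797R. Without it SNHG3 fell in both, by 0.35 on the log2 scale in GA-KH (edgeR adjusted p = 0.032) and by 0.44 in E797R (0.0019).

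Neither line differed from WT in the response of any member by the edgeR test (0 of 10 in each, and 0% of all genes), none had an unadjusted p under 0.05, where 1.65% of all genes did for GA-KH and 1.88% for E797R, and DESeq2 called none. Against CLIP each differed for 9 members, with 8 lower and SNHG16 higher, where 14.3% of all genes differed for GA-KH and 13.3% for E797R. SNHG7 again differed most, by -1.59 ± 0.17 in GA-KH and -1.76 ± 0.17 in E797R. Without the second siUPF1 library of CLIP, the difference of SNHG16 was 0.25 in GA-KH (edgeR adjusted p = 0.15) and 0.37 in E797R (0.018). Its GA-KH call was also lost without the third siNT library of CLIP, the first siNT or the second or the third siUPF1 library of GA-KH (edgeR adjusted p = 0.056 to 0.082).

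**Figure D3:**
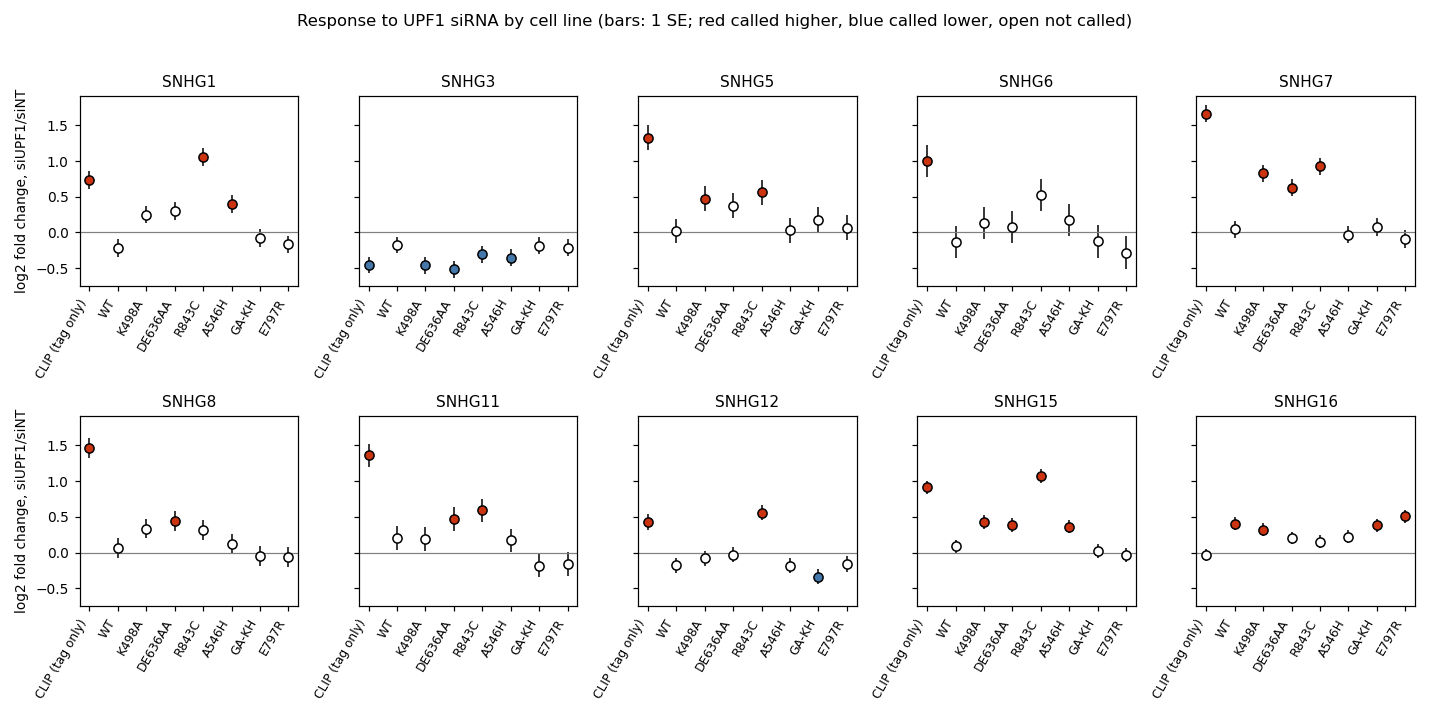
Log2 fold change of siUPF1 over siNT (vertical axis) by line for each SNHG gene, with bars of 1 SE, filled red where called higher, blue where called lower and open where not called. SNHG7 runs from 1.67 in CLIP through 0.93 in R843C and 0.83 in K498A to 0.04 in WT, and SNHG16 runs the other way, from -0.03 in CLIP to 0.51 in E797R.

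K498A and DE636AA, which alter the motifs that bind and hydrolyse ATP, gave responses between those of CLIP and WT for several members. Each had 4 members called higher and 1 lower, where 16.2% and 16.5% of all genes were called in K498A and 16.7% and 17.6% in DE636AA. The members' medians were 0.28 and 0.34, against -0.01 and -0.02 over all genes. SNHG7 stood at 37.9, 37.6 and 43.2 CPM with siNT and 71.5, 62.8 and 75.9 CPM with siUPF1 in K498A (0.83 ± 0.12, edgeR adjusted p = 1.1e-06). In DE636AA SNHG7 had 42.4, 41.4 and 43.7 CPM against 64.6, 61.4 and 71.3 CPM (0.63 ± 0.12, edgeR adjusted p = 7.9e-05). The siRNA groups of SNHG7 did not overlap in either line.

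SNHG15 rose in both, by 0.43 ± 0.10 in K498A (edgeR adjusted p = 0.00056) and 0.39 ± 0.10 in DE636AA (0.0014). SNHG3 fell in both, by 0.46 in K498A, from 63.0, 66.4 and 64.8 CPM to 48.3, 43.2 and 49.4 CPM (edgeR adjusted p = 0.0016). In DE636AA SNHG3 fell by 0.52, from 66.9, 64.0 and 77.7 CPM to 43.8, 53.2 and 48.5 CPM (edgeR adjusted p = 0.00044). SNHG16 rose in K498A (0.32 ± 0.09, edgeR adjusted p = 0.0047) and was not called in DE636AA (0.20 ± 0.09, 0.073). It was called there without the third siNT library (0.27, edgeR adjusted p = 0.035) and with the replicate number as a block (0.21, 0.018). The same block called SNHG8 in K498A (0.33, edgeR adjusted p = 0.045) and SNHG5 in DE636AA (0.37, 0.040). SNHG5 was called in K498A (0.47 ± 0.17, edgeR adjusted p = 0.030), a call lost without the second or the third siNT or the first or the third siUPF1 library (0.052 to 0.15). In DE636AA SNHG8 (0.44 ± 0.14, edgeR adjusted p = 0.013) and SNHG11 (0.47 ± 0.17, 0.028) were called. Both were lost without the second siNT or the third siUPF1 library (0.053 and 0.055 for SNHG8, 0.091 and 0.24 for SNHG11), and SNHG11 also without the first siNT library (0.10).

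Against WT, SNHG7 alone differed in these 2 lines by edgeR fitted to all libraries, by 0.78 ± 0.17 in K498A (edgeR adjusted p = 0.0051) and 0.59 ± 0.17 in DE636AA (0.040), where 3.26% and 4.5% of all genes differed. The difference in DE636AA lost its call in 10 of 12 fits that each left out 1 library, among them those without the first or second siUPF1 library of WT (edgeR adjusted p = 0.13 and 0.14). It was kept without the second siUPF1 library of DE636AA and without the third of WT. Fitted on the libraries of the groups compared alone, SNHG7 was not called in K498A (0.78, edgeR adjusted p = 0.060) or DE636AA (0.60, 0.13), while SNHG1 was called in both (0.46, 0.016, and 0.53, 0.021). In DE636AA SNHG1 was also called against WT by DESeq2 (0.51, adjusted p = 0.048) and by edgeR without a filter on low counts (0.55, 0.026). Against CLIP the responses were smaller by edgeR for 6 members in K498A, where 13.6% of all genes differed, and for 7 in DE636AA, where 17.9% differed. SNHG8 gave -1.13 ± 0.20 in K498A and -1.03 ± 0.20 in DE636AA, and SNHG7 gave -0.84 ± 0.17 and -1.04 ± 0.17. SNHG1, SNHG6 and SNHG16 were not called against CLIP in K498A by edgeR. DESeq2, with every library kept, called all of them (-0.49, adjusted p = 0.026, -0.87, 0.033, and 0.34, 0.030), 9 members in all. The share of all genes that DESeq2 called in this comparison is not given. By edgeR SNHG1 and SNHG6 were called without the second siUPF1 library of CLIP (-0.73, edgeR adjusted p = 1.5e-05, and -1.30, 3.6e-08). SNHG1 was also called without the second siNT library of CLIP (0.040), and SNHG16 without the first or the third siUPF1 library of CLIP (0.025 and 0.014).

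Several differences of K498A and DE636AA from CLIP lost their call without a single library. In K498A SNHG5 (-0.85) was lost without the first siNT library of K498A (edgeR adjusted p = 0.055). SNHG12 (-0.51) was lost without the third siNT or the first siUPF1 library of K498A (0.054 and 0.064). SNHG15 (-0.49) was lost without the third siNT library of K498A or the third siUPF1 library of CLIP (0.050 and 0.057). In DE636AA SNHG6 (-0.93) was lost in 9 of 12 fits that left out 1 library, all but those without the second siUPF1 library of CLIP or of DE636AA or the first siNT library of DE636AA (0.055 to 0.14). SNHG12 (-0.46) was lost in 6 of 12, those without the first or the third siNT or second siUPF1 library of CLIP, or the second or the third siNT or first siUPF1 library of DE636AA (0.056 to 0.097). SNHG1 was called in DE636AA against CLIP without the second siNT or the second siUPF1 library of CLIP (-0.53 and -0.68, edgeR adjusted p = 0.050 and 4.1e-05).

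R843C gave the largest median response of the members among the lines with CLIP-UPF1, although the values were larger for SNHG8 in K498A and DE636AA, for SNHG3 in K498A, DE636AA and A546H, and for SNHG16 in all 6 other such lines. In R843C 6 members rose and 1 fell, where 17.7% of all genes were called higher and 14.8% lower, and the members' median was 0.56. SNHG1 went from 60.8, 61.9 and 56.0 CPM to 124, 125 and 125 CPM (1.06 ± 0.12, edgeR adjusted p = 1.3e-08). Its 3 siUPF1 libraries were above every other SNHG1 library of the series. SNHG15 rose from 36.1, 44.1 and 38.9 CPM to 76.4, 83.4 and 90.3 CPM (1.07 ± 0.10, edgeR adjusted p = 2.5e-11), and SNHG12 from 28.4, 33.1 and 27.8 CPM to 44.1, 48.1 and 39.2 CPM (0.56 ± 0.11, 5.8e-05). The siRNA groups of SNHG15 and of SNHG12 did not overlap.

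SNHG7 rose in R843C from 44.9, 49.2 and 41.8 CPM to 84.4, 90.7 and 83.3 CPM (0.93 ± 0.12, edgeR adjusted p = 1.2e-07). SNHG5 (0.56 ± 0.17, 0.0098) and SNHG11 (0.59 ± 0.16, 0.0043) also rose by the edgeR test. SNHG6 was at 52.7, 43.3 and 48.5 CPM against 74.1, 66.5 and 67.6 CPM and was not called (0.53 ± 0.22, edgeR adjusted p = 0.068), although its groups did not overlap. It was called by edgeR fitted on the R843C libraries alone (0.51, adjusted p = 0.00012) and without a filter on low counts (0.49, 0.00016). SNHG8 had 16.2, 16.2 and 15.995 CPM against 18.6, 22.6 and 18.8 CPM, again without overlap and not called (0.31 ± 0.14, edgeR adjusted p = 0.086), and was called in the fit on the R843C libraries alone (0.30, 0.010). SNHG3 fell by 0.31 (edgeR adjusted p = 0.037), a call lost without any siNT library or the first siUPF1 library (0.054 to 0.14).

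In point value, the responses in R843C lay below those of CLIP for some members and above them for others. Members were not tested against each other. Of 10 members 2 differed from CLIP in their response, SNHG8 by -1.15 ± 0.20 (edgeR adjusted p = 0.00096) and SNHG7 by -0.74 ± 0.17 (0.021), where 0.753% of all genes differed. The point values of SNHG1, SNHG12 and SNHG15 were above those of CLIP, by 0.33 ± 0.17, 0.13 ± 0.15 and 0.16 ± 0.13, and did not pass the test (edgeR adjusted p = 0.49, 0.73 and 0.64). Without the second siUPF1 library of CLIP those values were 0.07, 0.13 and 0.02. SNHG5 and SNHG6 were then called lower than in CLIP (-0.97, edgeR adjusted p = 0.019, and -0.91, 0.00019) and SNHG8 stayed called (-1.04, 0.0026). The call of SNHG7 was lost without it (-0.65, 0.061) and without the first or the third siNT library of CLIP, the second siNT or the first or the third siUPF1 library of R843C (0.059 to 0.092), and SNHG11 was called without the first siUPF1 library of CLIP (-0.97, 0.014). Fitted on the libraries of these groups alone, neither SNHG7 nor SNHG8 was called (edgeR adjusted p = 0.21 and 0.084). Against WT 4 members differed in R843C, SNHG1 by 1.27 ± 0.18, SNHG15 by 0.98 ± 0.14, SNHG7 by 0.88 ± 0.17 and SNHG12 by 0.74 ± 0.15, where 1.94% of all genes differed (edgeR adjusted p = 1.3e-05, 1.2e-05, 0.0015 and 0.0026).

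In A546H 2 members rose and 1 fell, where 17.2% of all genes were called higher and 15% lower, and the median was 0.15. SNHG1 moved from 55.7, 56.9 and 53.1 CPM to 70.9, 75.7 and 71.2 CPM (0.39 ± 0.12, edgeR adjusted p = 0.013), a call lost without the second siUPF1 library (0.054). SNHG15 rose from 47.02, 41.5 and 43.9 CPM to 52.8, 59.2 and 58.5 CPM (0.36 ± 0.10, edgeR adjusted p = 0.0028). SNHG3 fell by 0.35 (edgeR adjusted p = 0.016), which was lost without the second siNT library (0.051). SNHG16 rose without the third siNT library (0.30, edgeR adjusted p = 0.016), and SNHG12 fell without the second siUPF1 library (by 0.30, 0.045). SNHG7 stood at 44.9, 48.4 and 51.2 CPM against 44.2, 51.4 and 45.8 CPM, and the groups overlapped (-0.03 ± 0.12, edgeR adjusted p = 0.87). No member differed from WT by edgeR fitted to all libraries (0 of 10, where 0.298% of all genes did). Of them 2 had an unadjusted p under 0.05, as did 8.34% of all genes, and DESeq2 called none. SNHG1 was called against WT by edgeR without a filter on low counts (0.60, adjusted p = 0.024). It was also called by edgeR fitted on the compared groups alone (0.62, 0.048). Against CLIP 6 members were lower, where 5.63% of all genes differed, SNHG7 by -1.70 ± 0.17 and SNHG8 by -1.34 ± 0.20. Without the second siUPF1 library of CLIP, SNHG1 (-0.60) and SNHG6 (-1.26) were called as well (edgeR adjusted p = 0.00060 and 1.2e-07). All differences from CLIP share the CLIP libraries, and those from WT share the WT libraries.

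The siNT libraries show levels before the endogenous protein was depleted. SNHG5 was higher in A546H, at 56.2, 58.8 and 58.4 CPM, than in CLIP, at 31.3, 31.6 and 33.4 CPM (0.85 ± 0.17, edgeR adjusted p = 0.020), the only member called in any line by edgeR fitted to all libraries, where 0.125% of all genes were. That call was lost in 5 of 6 fits that left out 1 library, those without any CLIP siNT library or the second or the third of A546H (edgeR adjusted p = 0.078 to 0.16), while the value stayed between 0.84 and 0.88. In A546H 8 of 10 members had all 3 siNT libraries above those of CLIP, as did 8.26% of all genes. SNHG11 had 9.75, 10.1 and 10.9 CPM against 6.06, 5.97 and 6.59 CPM (0.72 ± 0.17, edgeR adjusted p = 0.066), and SNHG7 44.9, 48.4 and 51.2 CPM against 32.0, 36.2 and 32.5 CPM (0.52 ± 0.12, 0.070). DESeq2 called both (SNHG11 0.72, adjusted p = 0.018, and SNHG7 0.52, 0.017).

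In R843C with siNT, 6 members had all libraries above CLIP and SNHG3 had all below, where 8.28% and 7.16% of all genes did. SNHG5 stood at 52.1, 52.2 and 54.5 CPM (0.72 ± 0.17, edgeR adjusted p = 0.13) and SNHG6 at 52.7, 43.3 and 48.5 CPM (0.72 ± 0.23, 0.75). By edgeR no member was called in R843C, where 0.0889% of all genes were, with 6 members at an unadjusted p under 0.05, against 3.34% of all genes, and SNHG5 called by DESeq2 (0.72, adjusted p = 0.036). No member was called by edgeR or by DESeq2 in WT, K498A, DE636AA, GA-KH or E797R, where 0.0314%, 0.0366%, 1.34%, 0.0627% and 0.0261% of all genes were called by edgeR. The members at an unadjusted p under 0.05 numbered 0, 1, 3, 1 and 0 in that order, against 3.55%, 11.5%, 17.6%, 2.59% and 4.06% of all genes.

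Read gene by gene over the 16 groups, SNHG7 was highest in CLIP siUPF1 (106 ± 14.6 CPM, SD, n = 3), then R843C siUPF1 (86.1 ± 3.97), then K498A siUPF1 (70.1 ± 6.65), and lowest in CLIP siNT (33.5 ± 2.28). The third of these groups and the next in order differed by less than the larger of their SDs. For SNHG8 the gap between CLIP siUPF1 (43.5 ± 7.71 CPM) and the next group, K498A siUPF1 (22.8 ± 2.67), was 2.68 times the larger SD. SNHG1 had R843C siUPF1 first (124 ± 0.487 CPM) and CLIP siUPF1 next (74.7 ± 25.6), a gap of 1.94 times the larger SD, while CLIP siUPF1 and A546H siUPF1 (72.6 ± 2.67) differed by less than the larger SD. Without the second library of CLIP siUPF1, its other SNHG1 libraries (80.3 and 97.0 CPM) lay above every A546H siUPF1 library. SNHG12 and SNHG15 had the same leading pair, at 43.8 ± 4.48 and 32.1 ± 0.642 CPM for SNHG12 and 83.4 ± 6.96 and 66.2 ± 13.4 CPM for SNHG15. SNHG6 also led in R843C siUPF1 (69.4 ± 4.11 CPM), within the spread of CLIP siUPF1 (58.5 ± 34.9). Without that second library CLIP siUPF1 led for SNHG6, at a mean of 78.7 CPM (n = 2), with 78.0 and 79.4 CPM above every R843C library. SNHG5 led in CLIP siUPF1 (80.4 ± 21.1 CPM), ahead of R843C siUPF1 (78.0 ± 2.08) by less than the larger SD. Without the second library its mean in CLIP siUPF1 was 92.1 CPM (n = 2). SNHG16 led in WT siUPF1 (136 ± 9.01 CPM), ahead of E797R siUPF1 (129 ± 3.14) by less than the larger SD. SNHG11 led in CLIP siUPF1 (15.9 ± 3.77 CPM), ahead of R843C siUPF1 (12.5 ± 1.39) by less than the larger SD. SNHG3 went the other way, with DE636AA siNT first (69.5 ± 7.19 CPM) and CLIP siUPF1 last (45.7 ± 6.22). Its first group led E797R siNT (67.0 ± 1.96) by less than the larger SD.

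The pattern of a member over the 16 groups was set against the mean of the other members by Pearson's r, given as a description of group means that share libraries and lines. The value was 0.95 for SNHG5 and SNHG15, 0.90 for SNHG7, 0.89 for SNHG1 and SNHG11, 0.87 for SNHG6, 0.70 for SNHG12 and 0.69 for SNHG8. SNHG3 gave -0.80 and SNHG16 -0.17. Among 11915 other genes averaging 5 CPM or more, those most like the members' mean were ZFAND2A (0.98), EPB41L4A-AS1 (0.96), SMG1 (0.96), NDUFAF5 (0.96) and RP11-561C5.4 (0.95). EPB41L4A-AS1 is itself a non-coding snoRNA host, and SMG1 is the kinase that phosphorylates UPF1. The gene most like SNHG12 was GAS5 (0.88, the lowest value of any member). SNHG6 was most like ZFAS1 (0.96) and SNHG1 most like EPB41L4A-AS1 (0.95), and all of these are non-coding snoRNA hosts. The other members were most like genes not among the listed hosts. These were SIAE for SNHG3 (0.96), NDUFAF5 for SNHG5 (0.96), HCN3 for SNHG7 (0.97) and CCDC9 for SNHG8 (0.94). For SNHG11 it was TARBP2 (0.97), for SNHG15 SEPT7P2 (0.97) and for SNHG16 SLC30A4 (0.96).

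**Figure D4:**
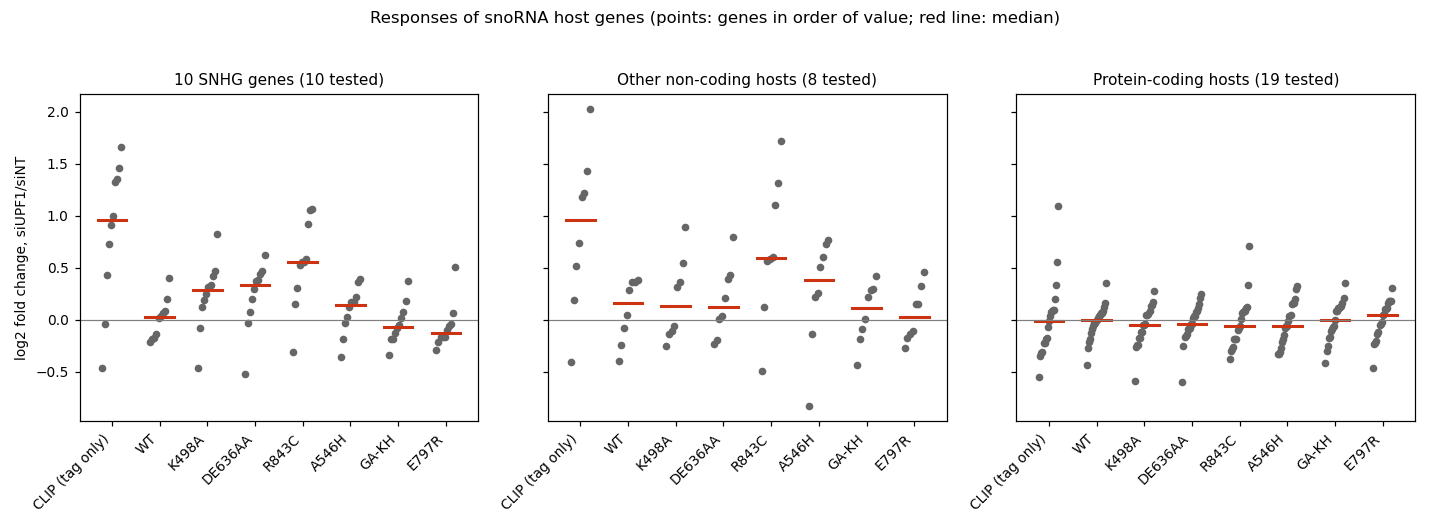
Log2 fold change of siUPF1 over siNT (vertical axis) by line for the 10 SNHG genes, 8 other non-coding snoRNA hosts and 19 protein-coding snoRNA hosts, each point a gene and each red line a median. The medians in CLIP are 0.96 for both non-coding lists and -0.01 for the protein-coding hosts.

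Other non-coding snoRNA hosts are given for comparison. Of 13 listed, 8 were tested, and in CLIP 6 rose and none fell, where 25.1% and 22.3% of all genes were called, with a median of 0.96. C6orf48 rose by 2.03 ± 0.12, EPB41L4A-AS1 by 1.44 ± 0.08 and SNHG17 by 1.22 ± 0.11. In R843C 6 rose and none fell (median 0.60), where 17.7% and 14.8% of all genes were called, and in WT 2 rose and none fell (median 0.17), where 14% and 13.3% were. K498A had 3 of the 8 called higher, DE636AA 2, E797R 2 and GA-KH 1, none of these lines with any lower, while A546H had 4 higher and 1 lower. Over all genes 16.2%, 16.7%, 16%, 14.5% and 17.2% were called higher in these lines in that order, and 15% lower in A546H. Of the 19 protein-coding hosts 3 were higher and 7 lower in CLIP, with a median of -0.01. TNPO2, a nuclear import receptor, rose by 1.10 ± 0.07, PPAN, a ribosome assembly factor, rose by 0.56 ± 0.10, and the nucleolar GTPase GNL3 fell by 0.55.

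Of 11 proteins of the snoRNA particles and their assembly, 3 rose and none fell in CLIP (median 0.09), a count near the background of 25.1% higher. These were NOLC1 by 0.40 ± 0.06, the pseudouridine synthase DKC1 by 0.34 ± 0.06 and the methyltransferase FBL by 0.29 ± 0.12. In R843C none was called by edgeR in this list, where 17.7% of all genes were called higher and 14.8% lower. Of 9 NMD factors other than UPF1, 8 rose and none fell in CLIP (median 0.77), where 25.1% and 22.3% of all genes were called. Among them were SMG1 by 1.52 ± 0.08, SMG5 by 0.96 ± 0.10 and SMG9 by 0.83 ± 0.08. In WT 1 of the 9 rose and 2 fell (median -0.13), where 14% and 13.3% of all genes were called. In R843C 7 rose and none fell (median 0.35), where 17.7% and 14.8% were.

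Some members share their locus with another gene in GENCODE release 29, and whether reads were counted by strand is not given in the sources used here. SNHG3 lies on the strand of RCC1 and overlaps it. RCC1, the exchange factor of the GTPase Ran, was not called in CLIP (0.12 ± 0.08) and fell in K498A by 0.30 and in DE636AA by 0.34 (edgeR adjusted p = 0.0047 and 0.0012), where SNHG3 fell by 0.46 and 0.52. SNHG12 overlaps TRNAU1AP on the opposite strand, which rose in CLIP by 0.22 ± 0.08 (edgeR adjusted p = 0.021) and was not called in R843C (0.02 ± 0.08). SNHG7 overlaps FAM69B on the opposite strand. FAM69B was not called in CLIP (-0.21 ± 0.17) and fell in the other 7 lines, by 0.43 to 0.66, in which SNHG7 rose or was not called. The part of shared reads in these values was not tested.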

How the data were processed

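RNA was measured in 48 libraries of 16 groups, taken with their replicate numbers from the labels. The deposited expected counts per gene, not normalised, were made by the authors with cutadapt, STAR and RSEM on hg19, per the submitters' processing notes, which also list DESeq2. Versions, annotation release and strand setting are not given in the sources used here.

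Expected counts were rounded and fitted with edgeR 4.0.16 in R 4.3.3: filterByExpr by group (99.9% or more of each library's counts kept), TMM (factors 0.974 to 1.04), and a quasi-likelihood fit to all libraries with 1 term per group. Its 28 comparisons were 8 responses (siUPF1 against siNT), 7 differences of a response from CLIP, 6 from WT and 7 of siNT libraries from CLIP. The call was an adjusted p (Benjamini-Hochberg) under 0.05 over all tested genes of a comparison. SE is the absolute log2 fold change over the square root of F. The design text calls the replicates biological, but does not say that they came from separate cultures, so p-values measure the spread between these libraries. No pair of replicates agreed within sampling noise (chi-square per degree of freedom 3.90 to 139 over 48 pairs).

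The members, lists and tests were chosen with earlier results of these data known. Named genes are every member, UPF1, the 3 tested genes of each list with the largest change in CLIP at a mean of 5 CPM or more, snoRNAs that passed the filter, and genes most like the members. RCC1, TRNAU1AP and FAM69B were added as overlapping genes. Alternatives were DESeq2 1.42.0 size factors, its Wald test, no filter on low counts, the compared groups alone, a replicate block and leaving out each library. Same-numbered siNT and siUPF1 libraries deviated together (every pair over 0.1) in 5 lines, WT, K498A, DE636AA, R843C and GA-KH (r from 0.24 to 0.68), and the labels do not say what the numbers share. They were read as pairs in those lines, a reading by line made after the fits had been seen. The values reported come from the fit without this pairing, unless the block is named. The block was set in every line, also in those not read as paired. With it the responses had 2, 6 and 7 calls in WT, K498A and DE636AA, against 1, 5 and 5 without it. The fit was tested on simulated data, where it fell short of the pass mark first set, and the mark was then lowered with the model unchanged. Start windows are RefSeq sequences on GRCh38.p14, not the build of the files, and give no coordinates for the counts.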

Additional observations from a re-analysis of the deposited data

Results flagged for a closer look

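Responses to UPF1 siRNA differed between lines for the genes below by the test of the difference itself (edgeR, adjusted p under 0.05), in log2 units, each line minus the line it is compared with. Relative to the tag-only line, the response in WT differed for SNHG1 by -0.95, SNHG5 by -1.31, SNHG6 by -1.14, SNHG7 by -1.62, SNHG8 by -1.40, SNHG11 by -1.16, SNHG12 by -0.61, SNHG15 by -0.83 and SNHG16 by 0.44. In K498A the difference from CLIP held for SNHG5 by -0.85, SNHG7 by -0.84, SNHG8 by -1.13, SNHG11 by -1.17, SNHG12 by -0.51 and SNHG15 by -0.49. For DE636AA the genes that differed from CLIP were SNHG5 by -0.95, SNHG6 by -0.93, SNHG7 by -1.04, SNHG8 by -1.03, SNHG11 by -0.89, SNHG12 by -0.46 and SNHG15 by -0.52. R843C differed from CLIP for SNHG7 by -0.74 and SNHG8 by -1.15. A546H differed from CLIP for SNHG5 by -1.30, SNHG7 by -1.70, SNHG8 by -1.34, SNHG11 by -1.19, SNHG12 by -0.61 and SNHG15 by -0.55. The line GA-KH differed from CLIP for SNHG1 by -0.81, SNHG5 by -1.15, SNHG6 by -1.13, SNHG7 by -1.59, SNHG8 by -1.51, SNHG11 by -1.54, SNHG12 by -0.77, SNHG15 by -0.89 and SNHG16 by 0.41. E797R differed from CLIP for SNHG1 by -0.90, SNHG5 by -1.26, SNHG6 by -1.29, SNHG7 by -1.76, SNHG8 by -1.52, SNHG11 by -1.52, SNHG12 by -0.59, SNHG15 by -0.95 and SNHG16 by 0.54.

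Relative to WT, K498A differed for SNHG7 by 0.78. DE636AA differed from WT for SNHG7 by 0.59. R843C differed from WT for SNHG1 by 1.27, SNHG7 by 0.88, SNHG12 by 0.74 and SNHG15 by 0.98. The report names the single libraries, among them the second siUPF1 library of CLIP, without which a call was lost or gained. Their causes were not tested.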

How the results depend on the processing

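Of the 5 settings changed one at a time, none reversed the direction of a called member, and neither did leaving out any of the 48 libraries. Values that were not called in either fit changed sign in 128 of 3860 fits compared, none larger than 0.20 in the values reported. With DESeq2 size factors in place of TMM, 1 of the 280 values of single genes crossed the threshold. The DESeq2 Wald test gave 8 crossings, all toward a call. It called 2 members in DE636AA against WT, and among siNT libraries 1 in R843C and 3 in A546H. Without a filter on low counts the calls numbered 2 in the E797R response, 4 in R843C against CLIP, 2 in DE636AA and 1 in A546H against WT, and with siNT 1 in K498A, 1 in DE636AA, 2 in R843C and 4 in A546H. Fitted on the compared groups alone, fewer libraries estimated the spread, and the calls against CLIP numbered 4 for WT, 2 for K498A, 3 for DE636AA, 0 for R843C, 5 for GA-KH and 5 for E797R. The same fit called 2 in the E797R response, 1 in A546H against WT, and with siNT 2 in DE636AA, 4 in R843C and 4 in A546H. Shares of all genes are given for edgeR fitted to all libraries only. The counts of members under other settings, here and below, have no such share beside them and are not read as a result about the members. The cause of these changes was not tested.

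In CLIP, A546H and E797R the replicate numbers did not pair the libraries by the criterion met in the other 5 lines (r from -0.09 to 0.59). A replicate block within each line gave 2 calls in the WT response, 5 in A546H (SNHG12 -0.19, SNHG16 0.22 added), and with siNT 1 in DE636AA, 3 in R843C and 3 in A546H. Against CLIP the block lost SNHG6 in WT (-0.92, edgeR adjusted p = 0.057), DE636AA (-0.71, 0.12) and GA-KH (-0.91, 0.052) and added SNHG16 in K498A (0.37, 0.0090) and SNHG11 in R843C (-0.76, 0.039). Apart from these and the 4 calls added in the responses of WT, K498A and DE636AA, it changed no call.

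Leaving out single libraries gave 3 to 6 calls in the DE636AA response, 4 to 6 in K498A, 6 to 7 in R843C, 2 to 4 in A546H, 1 to 3 in GA-KH and 1 to 2 in E797R. Against CLIP it gave 4 to 8 in K498A, 5 to 7 in DE636AA, 6 to 8 in A546H, 1 to 3 in R843C, and 8 to 9 in WT and in GA-KH. It gave 0 to 1 in DE636AA against WT, and 0 to 1 in A546H with siNT. In the other comparisons the count did not change. The depth limits SNHG11 most, whose counts ran from 152 to 650 per library, against 1843 to 6122 for SNHG16.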
